A study of Homo sapiens with 15 samples.

Results

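The genes described here are 10 components and target genes of the YAP and TEAD pathway, taken as a list by name from the 47634 genes counted: ANKRD1, CYR61 (also CCN1), CTGF (also CCN2), AMOTL1, AMOTL2, AJUBA, LATS2, YAP1, WWTR1 and TEAD1. Of these, 9 were among the 11113 genes that passed the filter on low counts, and CTGF was not. They were measured by QuantSeq, a method that sequences the 3′ ends of polyadenylated RNA, in IGROV-CP20 cells, an established ovarian cancer line selected for resistance to cisplatin. The 15 libraries comprise 5 conditions with 3 biological replicates each. The cells were untreated, or received 50 µM cisplatin for 24 h alone, or received the same cisplatin after 24 h with 10 µM Tranilast (an anti-allergic drug), Telmisartan (an angiotensin receptor blocker) or Amphotericin B (an antifungal). No library holds a drug without cisplatin, so that the effect of a drug by itself was not measured.

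YAP1 and WWTR1 (the gene of TAZ) are transcriptional coactivators that bind DNA through the TEAD factors. The Hippo kinases, among them LATS2, phosphorylate both coactivators and keep them out of the nucleus, and angiomotins (AMOTL1 and AMOTL2) and the LIM protein AJUBA act on the coactivators or on LATS. ANKRD1, CYR61 and CTGF are commonly used target genes of YAP and TEAD, and AMOTL2 and LATS2 are both targets and inhibitors in a feedback loop. Much of this control acts on protein phosphorylation and location, which mRNA counts do not show.

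TEAD factors recognise the motif GGAATG, and the 250 bases before the starts of 4 members that carry it are shown. They are the target genes ANKRD1, CTGF and AMOTL2 and the coactivator gene YAP1. The sequences are from RefSeq (GRCh38.p14), read 5′ to 3′ on the strand of the gene and ending just before the start. Capitals mark GGAATG on either strand and, in ANKRD1, the AP-1 motif TGANTCA.
ANKRD1, chr10:90921088-90921337, minus strand: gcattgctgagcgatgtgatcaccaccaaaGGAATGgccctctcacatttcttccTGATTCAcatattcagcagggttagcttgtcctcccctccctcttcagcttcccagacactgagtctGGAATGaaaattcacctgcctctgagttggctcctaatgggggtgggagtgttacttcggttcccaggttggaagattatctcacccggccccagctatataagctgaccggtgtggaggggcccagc
CTGF, chr6:131951373-131951622, minus strand: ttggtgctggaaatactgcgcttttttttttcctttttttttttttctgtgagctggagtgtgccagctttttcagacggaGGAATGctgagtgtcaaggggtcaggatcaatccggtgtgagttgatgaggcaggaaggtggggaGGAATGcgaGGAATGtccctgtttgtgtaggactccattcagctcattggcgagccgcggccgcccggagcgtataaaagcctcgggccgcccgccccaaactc
AMOTL2, chr3:134374448-134374697, minus strand: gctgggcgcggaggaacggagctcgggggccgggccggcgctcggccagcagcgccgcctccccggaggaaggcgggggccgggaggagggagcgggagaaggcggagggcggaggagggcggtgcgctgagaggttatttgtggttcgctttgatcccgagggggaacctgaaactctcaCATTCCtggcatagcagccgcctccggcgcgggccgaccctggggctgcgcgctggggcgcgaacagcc
YAP1, chr11:102110197-102110446, plus strand: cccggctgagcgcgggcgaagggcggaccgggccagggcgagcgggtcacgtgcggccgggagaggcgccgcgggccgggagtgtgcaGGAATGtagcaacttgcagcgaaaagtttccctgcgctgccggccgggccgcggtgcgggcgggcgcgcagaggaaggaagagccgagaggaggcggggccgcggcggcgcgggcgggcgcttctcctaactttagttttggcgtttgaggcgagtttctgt
The stretch of CTGF holds 3 matches of GGAATG, which begin 169, 104 and 95 bases before the start, and that of ANKRD1 holds 2, at 220 and 128 bases. YAP1 holds 1 match at 162 bases, and this entry of AMOTL2 holds 1 on the opposite strand at 69 bases. In all, 8 members had 11 entries in the table, of which 5 entries carried the motif, the remaining one belonging to AJUBA. CYR61 and TEAD1 had no entry and were not searched. AMOTL2 and AJUBA had 2 entries each, and entry 1 of each held no match. GGAATG was present in 11.9% of the 35116 promoters of the table, and 0.940% held at least 2. The AP-1 motif was found in 1 entry, 195 bases before the start of ANKRD1, against 6.57% of all promoters, and the CArG box of SRF in 0 entries, against 1.16%. The entries of AMOTL1, LATS2 and WWTR1 held none of the 3 motifs. A match is a description of the letters and not a measured binding site.

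Total counts ranged from 1510620 to 3517041 per library. The share of mitochondrial ribosomal RNA (MT-RNR1 and MT-RNR2) was 1.79% to 2.20% in untreated libraries and 2.10% to 2.53% with Tranilast, but 12.3% to 14.8% with Amphotericin B. Within cisplatin alone it was 13.7%, 5.61% and 3.41% in replicates 1, 2 and 3, and within Telmisartan it was 10.8%, 12.9% and 3.61%. Cisplatin replicate 1 and Telmisartan replicate 3 stood apart from the other libraries of their conditions. By this share, cisplatin replicate 1 was closer to Telmisartan replicates 1 and 2 than to its partners. Likewise, Telmisartan replicate 3 was closer to cisplatin replicates 2 and 3. The reason was not tested. The chi-square of counts per degree of freedom was 26.4 and 43.1 between cisplatin replicate 1 and its partners and 37.8 and 44.1 between Telmisartan replicate 3 and its partners, against 2.24 to 8.07 for all other pairs. Of the epithelial markers, KRT18, KRT8, EPCAM and CDH1 were counted in every library, and KRT19 in all but 1, with at most 16 counts. EPCAM had 39.9 to 43.4 CPM in untreated cells and 11.2 to 25.7 CPM elsewhere. KRT18 (84 to 92.4 against 104 to 209 CPM) and CDH1 (1.59 to 2.59 against 3.27 to 10.7 CPM) went the other way. For KRT8 the ranges overlapped (16.3 to 16.9 against 7.14 to 26.3 CPM). PAX8 and WT1 had at most 1 count and MUC16 at most 4. Of 10 markers of fibroblast, immune and endothelial cells in the files, CD3E, VWF and CDH5 were at 0 in all 15 libraries, and PTPRC, a leukocyte marker, had 220 to 296 counts in untreated and 5 to 98 in other libraries. COL1A1, a fibroblast marker, went the other way, with 6.38 to 8.63 CPM in untreated cells and 11.2 to 32.7 CPM elsewhere. The remaining markers, COL1A2, DCN, LUM, PDGFRB and CD68, had at most 18 counts in a library. The summed level of these 10 markers was 74.5 to 85.3 CPM in untreated cells and 23.2 to 49.1 CPM elsewhere. Without PTPRC it was 8.61 to 10.1 CPM in untreated cells and 15.3 to 42.4 CPM elsewhere. The part of these cells or markers in the results was not tested. In these bulk samples, fewer cells with a transcript and less of it per cell cannot be told apart.

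Cisplatin alone lowered the coactivator gene WWTR1, the target gene ANKRD1 and TEAD1 and raised AMOTL2, whereas YAP1 did not pass the test. In the quasi-likelihood test of edgeR, with p adjusted over all genes by the method of Benjamini and Hochberg, 4 of the 9 members tested had an adjusted p under 0.05, 3 of them lower and 1 higher. Of all genes tested, 44.7% were called in this comparison, 23.6% lower and 21.1% higher, so that the share among the members was close to the background. Levels are given below as CPM, the counts scaled to a common library total with TMM factors.

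ANKRD1, a nuclear ankyrin repeat protein, had 1592, 1631 and 1678 CPM in untreated cells and 767, 424 and 693 CPM with cisplatin. The 3 cisplatin libraries all lay below the 3 untreated ones. The log2 fold change was -1.38 ± 0.22 (SE, n = 3 per condition), a level 0.385 times that of untreated cells (adjusted p = 0.000102, edgeR). WWTR1 had 52.6, 54.4 and 46.3 CPM in untreated cells and 21.8, 17.2 and 21.8 CPM with cisplatin, again without overlap. Its log2 fold change was -1.33 ± 0.20 (adjusted p = 6.85e-05, edgeR). These 2 calls were kept in each of the 24 alternative fits, with adjusted p of at most 0.00329 for ANKRD1 and 0.00182 for WWTR1.

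TEAD1, the DNA-binding partner of the coactivators, had 9.88, 13.2 and 9.42 CPM in untreated cells. With cisplatin it had 6.72, 1.47 and 1.19 CPM, which are 12, 3 and 3 counts, so that 2 of the libraries were near the limit of detection. The log2 fold change was -1.88 ± 0.54 (adjusted p = 0.00904, edgeR). AMOTL2 had 14.3, 13.8 and 14 CPM in untreated cells and 14, 36.8 and 28.2 CPM with cisplatin. The value of cisplatin replicate 1, the library with 13.7% of mitochondrial rRNA, lay among the untreated ones, and the 2 others lay above them. The log2 fold change of AMOTL2 was 0.91 ± 0.28 (adjusted p = 0.0126, edgeR). Without cisplatin replicate 2, AMOTL2 and TEAD1 no longer passed the threshold (adjusted p = 0.105 and 0.0531, edgeR). That fit called 31.6% of all genes, against 44.7% with all libraries. With scaling by library size only, the adjusted p of AMOTL2 was 0.184.

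YAP1, the second coactivator, had 81.0, 80.3 and 93.2 CPM in untreated cells and 84.0, 57.9 and 73.5 CPM with cisplatin (log2 fold change -0.24 ± 0.18, adjusted p = 0.286, edgeR). CYR61, a secreted matrix protein, had 35.1, 27.6 and 49.1 CPM against 20.2, 29.9 and 29 CPM (log2 fold change -0.50 ± 0.33). LATS2 had 38.9, 36.0 and 37.2 CPM against 26.9, 43.7 and 57.2 CPM (log2 fold change 0.20 ± 0.26). The groups overlapped for all 3 of these genes. LATS2 passed the edgeR test as higher with the mitochondrial rRNA share as a covariate (log2 fold change 0.65 ± 0.20, adjusted p = 0.00813) and without cisplatin replicate 1 and Telmisartan replicate 3 (0.44 ± 0.19, adjusted p = 0.0472). AMOTL1 and AJUBA had log2 fold changes of -0.14 ± 0.34 and 0.10 ± 0.33. CTGF had between 0 and 9 counts in a library, with means of 1.18 to 1.71 CPM over the 5 conditions, and changes in it were not detectable at this depth.

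**Figure D1:**
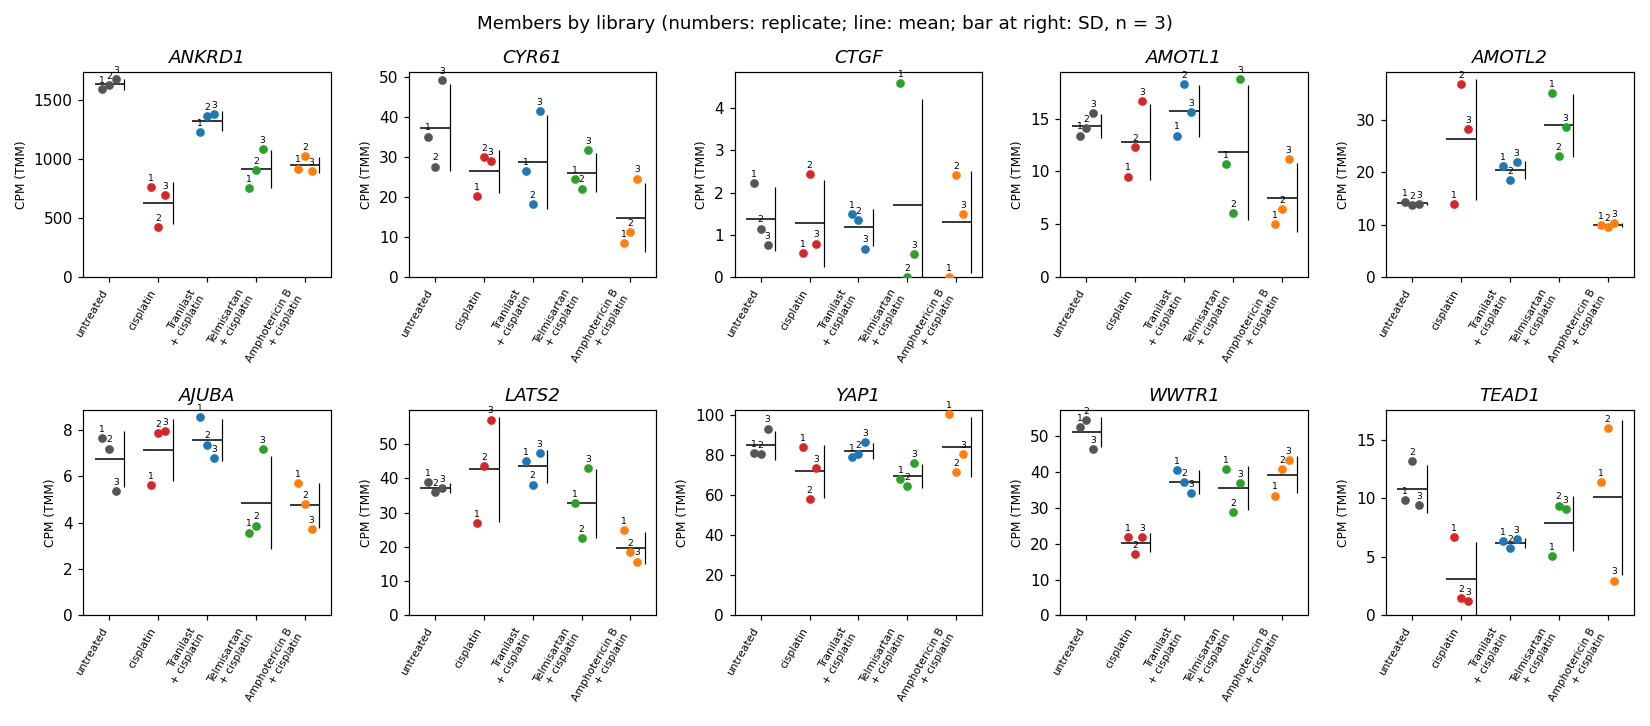
Level of each member in CPM with TMM scaling (vertical axis, from 0) in the 5 conditions (horizontal axis). Points are libraries numbered by replicate, lines are means and bars are SD (n = 3, cut at 0). ANKRD1 and WWTR1 were lower in every cisplatin library than in every untreated one, while AMOTL2 and LATS2 in cisplatin replicate 1 lay below replicates 2 and 3.

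With Tranilast, ANKRD1 and WWTR1 were higher than with cisplatin alone, and no member was lower by the test. These were 2 of the 9 members tested, where 22.2% of all genes were called, 10.5% higher and 11.6% lower. ANKRD1 had 1227, 1363 and 1384 CPM, all above the cisplatin libraries and below the untreated ones. Its log2 fold change against cisplatin was 1.08 ± 0.22 (adjusted p = 0.00354, edgeR), and against untreated cells -0.30 ± 0.21 (adjusted p = 0.451, edgeR). WWTR1 had 40.6, 37.1 and 34.1 CPM, again between both groups without overlap. Its log2 fold change against cisplatin was 0.87 ± 0.20 (adjusted p = 0.00673, edgeR), and against untreated cells -0.46 ± 0.19 (adjusted p = 0.148, edgeR). Both calls against cisplatin were kept in all 24 alternative fits. AMOTL2 had 21.2, 18.5 and 21.9 CPM with Tranilast, and TEAD1 6.33, 5.72 and 6.54 CPM, and neither passed the test. Without cisplatin replicate 1, AMOTL2 was lower (log2 fold change -0.64, adjusted p = 0.0421, edgeR) and TEAD1 higher (2.21, adjusted p = 0.0164) than with cisplatin, which brought the count of members called to 4, where 23.4% of all genes were called.

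Against untreated cells, 0 of 9 members passed the edgeR test with Tranilast, where 8.10% of all genes did. At an unadjusted p under 0.05 (edgeR) there was 1 member, WWTR1, and 2373 of the 11113 genes. DESeq2 called 10.6% of all genes and also 0 members. A fit of only the 6 libraries of this comparison called 4 members, which were ANKRD1, AMOTL2, WWTR1 and TEAD1, and 36.4% of all genes.

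With Telmisartan, 0 of the 9 members passed the edgeR test against cisplatin alone, as did 0% of all genes tested. At an unadjusted p under 0.05 (edgeR) there were 3 members, all higher, and 1150 of the 11113 genes. DESeq2 called 1 member and 0.495% of all genes. The 3 members were ANKRD1 (758, 909 and 1087 CPM), WWTR1 (40.8, 28.7 and 36.9 CPM) and TEAD1 (5.10, 9.39 and 9.08 CPM). For WWTR1 the 3 libraries lay above the 3 with cisplatin alone, with a log2 fold change of 0.81 ± 0.20 (unadjusted p = 0.000915, adjusted p = 0.294, edgeR; adjusted p = 0.0467, DESeq2). For ANKRD1 and TEAD1 the highest cisplatin library overlapped the lowest with Telmisartan. Without cisplatin replicate 1, 2 members were called, WWTR1 and TEAD1, and 4.81% of all genes. Without both that library and Telmisartan replicate 3 there were 4, namely ANKRD1, WWTR1 and TEAD1, higher, and LATS2, lower, and 24.9% of all genes were called.

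Against untreated cells, 3 of 9 members were called with Telmisartan, against 28.7% of all genes. ANKRD1 was lower (log2 fold change -0.83 ± 0.21, adjusted p = 0.00834, edgeR), with all 3 libraries below the untreated ones. AMOTL2 was higher (35.2, 23.2 and 28.6 CPM, log2 fold change 1.04 ± 0.27, adjusted p = 0.00897). WWTR1 was lower (log2 fold change -0.52 ± 0.19, adjusted p = 0.0463), a call that was lost in 15 of 24 alternative fits, with adjusted p between 0.0206 and 0.203. The libraries of the 2 groups did not overlap for any of these 3 genes. With scaling by library size only, AMOTL2 did not pass (adjusted p = 0.106).

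With Amphotericin B, the angiomotin AMOTL2 and the kinase LATS2 were lower and WWTR1 was higher than with cisplatin alone. These were 3 of 9 members, 1 higher and 2 lower, where 13.2% of all genes were called, 4.21% higher and 9.01% lower. AMOTL2 had 9.96, 9.62 and 10.4 CPM, below every other library of the series. Its log2 fold change was -1.40 ± 0.32 (adjusted p = 0.0115, edgeR). LATS2 had 24.9, 18.4 and 15.7 CPM, below the 3 libraries with cisplatin alone (log2 fold change -1.12 ± 0.29, adjusted p = 0.0200, edgeR). WWTR1 had 33.4, 40.9 and 43.2 CPM, above all cisplatin libraries (log2 fold change 0.95 ± 0.21, adjusted p = 0.0104, edgeR). TEAD1 had 11.4, 16 and 2.98 CPM and ANKRD1 920.2, 1024 and 900.4 CPM, with adjusted p of 0.0535 and 0.0714.

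None of the 3 Amphotericin B calls was kept without cisplatin replicate 2, where the adjusted p was 0.0816 for AMOTL2, 0.0811 for LATS2 and 0.0577 for WWTR1, or in a fit of only the 6 libraries, where it was 0.0827, 0.0942 and 0.0822. The calls over all genes fell too, from 13.2% in the main fit to 1.83% and 0.967% in these fits. With scaling by library size only WWTR1 did not pass (0.0792), where 9.83% of all genes were called. LATS2 also did not pass without cisplatin replicate 3 (0.109) or Amphotericin B replicate 2 (0.0575) or 3 (0.0942). Of all genes, 3.95%, 8.42% and 3.84% were called in these fits. Without cisplatin replicate 1 there were 5 calls, ANKRD1 and TEAD1 being added, with 33.8% of all genes called, and without Telmisartan replicate 3 there were also 5, with 20.6% of all genes called. With the share of mitochondrial rRNA as a covariate, the log2 fold change was -1.03 ± 0.36 for AMOTL2 (adjusted p = 0.0900, edgeR) and -0.50 ± 0.26 for LATS2 (adjusted p = 0.276). That fit called 4.84% of all genes. The Amphotericin B libraries all had shares of at least 12.3% and the untreated and Tranilast libraries at most 2.53%, so that in comparisons between these groups the share and the drug cannot be told apart.

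**Figure D2:**
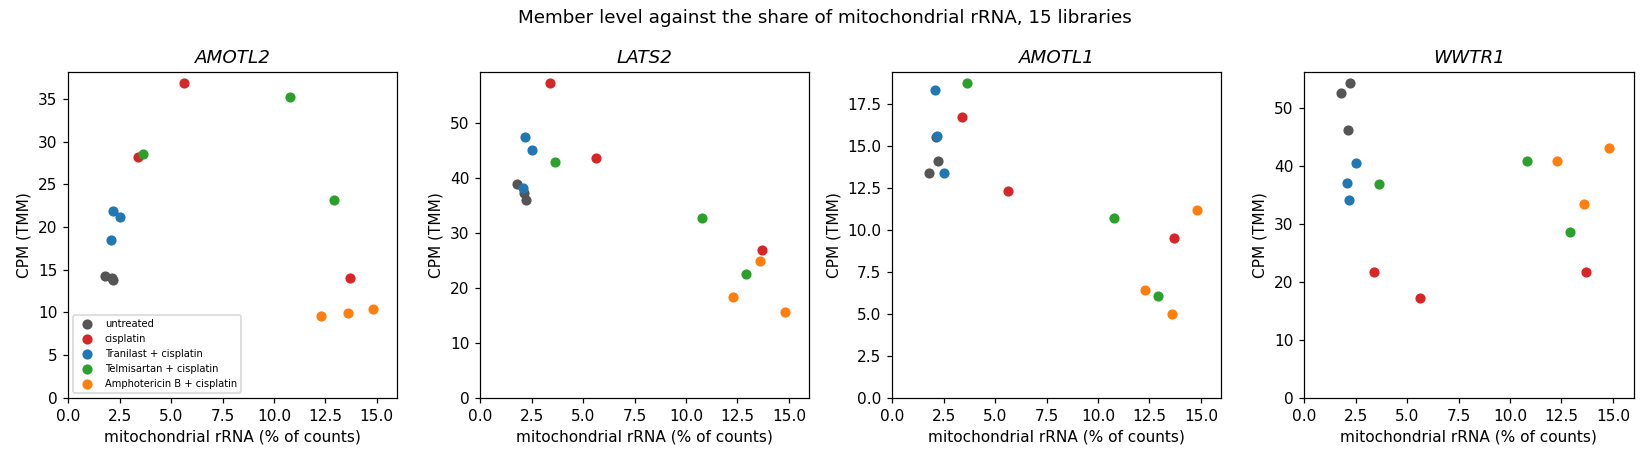
CPM of AMOTL2, LATS2, AMOTL1 and WWTR1 (vertical axes, from 0) against the share of mitochondrial rRNA in percent of counts (horizontal axis), 1 point per library, coloured by condition. LATS2 was at or below 32.7 CPM in the 6 libraries with a share over 10% and at or above 36.0 CPM in the other 9.

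Low levels of LATS2 went with high shares between libraries. The 6 libraries with more than 10% of mitochondrial rRNA (cisplatin replicate 1, Telmisartan replicates 1 and 2 and the 3 with Amphotericin B) had 15.7 to 32.7 CPM of LATS2, and the other 9 had 36.0 to 57.2 CPM. The same 6 libraries had 4.98 to 11.2 CPM of AMOTL1 and the other 9 had 12.3 to 18.7 CPM. Within Tranilast, replicate 2 had both the lowest share (2.10%) and the lowest LATS2 (38.2 CPM). Within Amphotericin B the order was mixed. Replicate 3 had the highest share (14.8%) and the lowest LATS2 (15.7 CPM). Replicate 2, with the lowest share (12.3%), had 18.4 CPM, and replicate 1 (13.6%) had 24.9 CPM. AMOTL2 did not follow the share in Telmisartan replicates 1 and 2, which had 35.2 and 23.2 CPM. These groups of libraries were formed from the data and are not conditions of the study, and the part of the share in the levels was not tested.

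With Amphotericin B plus cisplatin, 3 of 9 members were lower than in untreated cells and 0 higher. Of the 11113 genes, 40.9% were called, 2587 lower and 1961 higher. This comparison holds the change with cisplatin too, and ANKRD1, one of the 3, had a mean of 628 CPM with cisplatin alone and 948 CPM with Amphotericin B added. They were ANKRD1 (log2 fold change -0.78 ± 0.21, adjusted p = 0.00773, edgeR), CYR61 (8.53, 11.2 and 24.6 CPM, -1.33 ± 0.37, adjusted p = 0.00856) and LATS2 (-0.92 ± 0.29, adjusted p = 0.0166). The median log2 fold change of all genes was -0.19 in this comparison. Without Amphotericin B replicate 1 CYR61 did not pass (adjusted p = 0.0555, edgeR), and without its replicate 3 LATS2 did not (0.0842). Of all genes, 31.1% and 31.8% were called in these fits. With the mitochondrial rRNA share as a covariate, the log2 fold change of LATS2 was 0.15 (adjusted p = 0.800, edgeR) and CYR61 did not pass (0.291). That fit called 19.4% of all genes.

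The direct comparison of drugs tests whether their effects on a member differ, since all 3 were given with the same cisplatin and their comparisons with cisplatin alone share the same 3 libraries. AMOTL1, AMOTL2 and LATS2 were higher with Tranilast than with Amphotericin B, which makes 3 of 9 members. Of the 11113 genes, 36.0% were called, 2186 higher and 1817 lower. For LATS2, 45.0, 38.2 and 47.4 CPM with Tranilast stood against 24.9, 18.4 and 15.7 CPM (log2 fold change 1.14 ± 0.29, adjusted p = 0.00617, edgeR). For AMOTL2 the log2 fold change was 1.03 ± 0.32 (adjusted p = 0.0181). For AMOTL1, 13.4, 18.3 and 15.6 CPM stood against 4.98, 6.42 and 11.2 CPM (1.07 ± 0.39, adjusted p = 0.0407). The call of AMOTL1 was lost with its sign kept in 9 of 24 alternative fits. In 1 more it was lost with the opposite sign (log2 fold change -0.12, adjusted p = 0.947, edgeR). That of AMOTL2 was lost without Tranilast replicate 3 (adjusted p = 0.051) or Amphotericin B replicate 1 (0.0536) or 3 (0.054). The fits named for AMOTL2 called 24.9%, 24.5% and 23.7% of all genes, against 36.0% in the main fit. With the mitochondrial rRNA share as a covariate none of the 3 members passed, and 0.774% of all genes did. That fit cannot decide on these members, since share and drug cannot be told apart between the 2 groups. The libraries did not overlap for any of the 3 genes, and the median of all genes was 0.15 on the same log2 scale. Between Tranilast and Telmisartan, 0 of 9 members passed the edgeR test, against 2.34% of all genes, with 1 member at an unadjusted p under 0.05 and 0 by DESeq2. Of the 11113 genes, 2512 had an unadjusted p under 0.05, and DESeq2 called 9.66%. Between Telmisartan and Amphotericin B, 0 of 9 members and 0% of all genes passed. At an unadjusted p under 0.05 there were 3 members and 2283 of the 11113 genes. Among these members AMOTL2 had the smallest p (log2 fold change 1.53 ± 0.32, unadjusted p = 0.000129, adjusted p = 0.0936, edgeR). DESeq2 called it (adjusted p = 0.0157), with 1.66% of all genes.

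**Figure D3:**
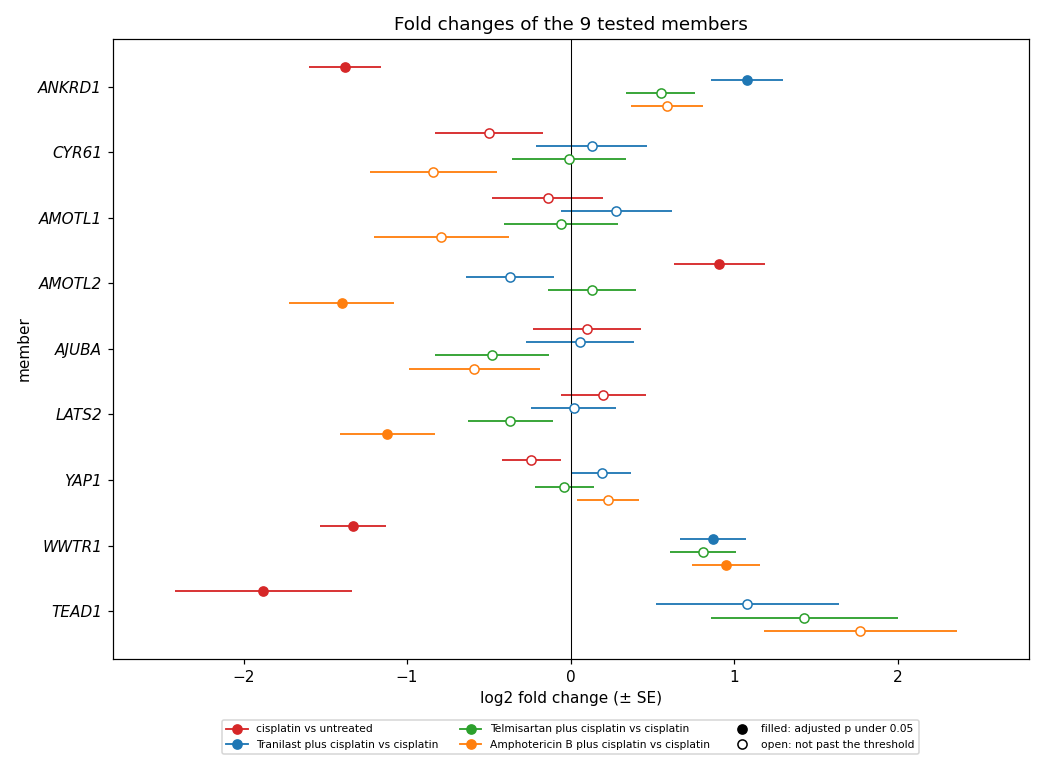
Log2 fold change (horizontal axis) with its SE for the 9 tested members (vertical axis) in cisplatin against untreated cells and in each drug with cisplatin against cisplatin alone. Filled points have an adjusted p under 0.05. WWTR1 changed by -1.33 with cisplatin and by 0.81 to 0.95 with the drugs, and no Telmisartan point passed this edgeR test.

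By mean level, WWTR1 fell in the order untreated (51.1 ± 4.23 CPM, SD, n = 3), Amphotericin B (39.2 ± 5.13), Tranilast (37.2 ± 3.25), Telmisartan (35.5 ± 6.17) and cisplatin alone (20.3 ± 2.70). No pair of the 3 drug conditions passed the test, nor did Telmisartan against cisplatin alone or Amphotericin B against untreated cells. ANKRD1 fell in the order untreated (1634 ± 43.1 CPM), Tranilast (1325 ± 85.1), Amphotericin B (948 ± 66.5), Telmisartan (918 ± 164) and cisplatin alone (628 ± 180.5). Among neighbours in this order, none passed the test. YAP1 stayed between means of 69.6 and 84.8 CPM and passed the test in 0 of 10 comparisons by edgeR, with its unadjusted p between 0.133 and 0.949. With scaling by library size only it passed in 4 of the comparisons. AJUBA also passed in 0 of 10, with means of 4.74 to 7.56 CPM and 5 to 30 counts in a library.

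The genes with the condition profile most like that of ANKRD1 were chosen among 8539 genes by the root mean square difference of centred mean log2 CPM over the 5 conditions. GALM, a sugar mutarotase, differed by 0.0249 on this log2 scale, BAIAP2L1, an actin-regulating adaptor, by 0.0531, and TRAF3, a signalling adaptor, by 0.0600. GALM had means of 35.3 CPM in untreated cells, 12.3 with cisplatin, 27.9 with Tranilast, 18.5 with Telmisartan and 19.4 with Amphotericin B. For CYR61 the nearest genes were TMEM248 (0.0373), RCC2 (0.0476) and ZNF354A (0.0625). No such genes are given for CTGF, whose profile rests on at most 9 counts a library.

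The other genes of the pathway were read from 3 lists. The first holds 24 genes of the Hippo kinase cascade, its scaffolds and upstream regulators, of which 21 were tested. With cisplatin 8 were lower and 2 higher, against 23.6% and 21.1% of all genes (median log2 fold change -0.63, all genes -0.01). The 2 lower genes with the smallest adjusted p were TAOK3, a kinase upstream of the cascade (-1.73 ± 0.22, adjusted p = 2.03e-05, edgeR), and WWC1, the scaffold KIBRA (-2.30 ± 0.30, 2.37e-05). The higher ones were TAOK2, a related kinase (1.56 ± 0.27, 0.000235), and RASSF1, a scaffold that binds the MST kinases (0.88 ± 0.18, 0.000816).

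With Tranilast 7 of these 21 genes were higher and 2 lower than with cisplatin alone, against 10.5% and 11.6% of all genes (median 0.34, all genes 0.02). WWC1 (1.75 ± 0.31), TAOK1 (1.33 ± 0.23) and the upstream kinase MAP4K4 (1.33 ± 0.23) were higher, tied at an adjusted p of 0.00198 (edgeR), and RASSF1 (-0.75 ± 0.18, 0.00763) and TAOK2 (-0.75 ± 0.26, 0.0447) were lower. WWC1 had 43.7, 45.8 and 44.8 CPM in untreated cells, 15.1, 5.89 and 6.75 CPM with cisplatin and 28.3, 30.0 and 33.2 CPM with Tranilast, with no overlap among the 3 groups. With Amphotericin B 3 were higher and 1 lower, against 4.21% and 9.01% of all genes (median 0.05, all genes -0.04), among them STK3, the kinase MST2 (1.74 ± 0.44, 0.0172), WWC1 (1.23 ± 0.34, 0.0251) and, lower, SAV1, the MST scaffold (-1.11 ± 0.34, 0.0399). Without cisplatin replicate 2 or 3, or Amphotericin B replicate 3, 0 of the 21 were called, without Amphotericin B replicate 2 there was 1, without any untreated or Tranilast library or Amphotericin B replicate 1 there were 2, and without cisplatin replicate 1 there were 7. The share of all genes called was 1.83%, 3.95% and 3.84% in the fits with 0, and 8.42% in that with 1. It was 6.38% to 9.93% in the fits with 2 and 33.8% without cisplatin replicate 1, against 13.2% with all libraries. With Telmisartan 0 of the 21 were called by edgeR, with 5 at an unadjusted p under 0.05, and 0 by DESeq2. Of the 11113 genes, 1150 had an unadjusted p under 0.05 (edgeR), and DESeq2 called 0.495%.

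The second list holds 7 other TEAD factors and Vestigial-like cofactors that bind TEAD, of which 5 were tested. With cisplatin VGLL3 (-1.06 ± 0.19, adjusted p = 0.000363, edgeR) and VGLL4 (-1.29 ± 0.35, 0.00631) were lower and none was higher, against 23.6% and 21.1% of all genes (median -0.56). VGLL4, a repressor of TEAD activity, was higher with Tranilast than with cisplatin alone (1.17 ± 0.35, 0.0234), a call that was lost without cisplatin replicate 2 or any of the 3 Tranilast libraries. These fits called 9.66% to 14.4% of all genes, against 22.2% with all libraries. With Telmisartan and with Amphotericin B, 0 of the 5 were called by edgeR or DESeq2, and 0 had an unadjusted p under 0.05. Of the 11113 genes, 1150 and 3507 had an unadjusted p under 0.05 (edgeR), and DESeq2 called 0.495% and 16.3%.

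The third list holds 17 genes of a conserved YAP and TAZ target signature, written from general knowledge, of which 12 were tested. With cisplatin 8 were lower and 0 higher (median -1.67, all genes -0.01), where 23.6% of all genes were lower. Those with the smallest adjusted p were PTPN14, a phosphatase that binds YAP (-1.69 ± 0.24, 3.73e-05, edgeR), and IGFBP3, an IGF-binding protein (-2.05 ± 0.34, 0.000173). Without cisplatin replicate 3, 5 genes of the list and 41.8% of all genes were called. PTPN14 was higher with Tranilast (1.15 ± 0.24, 0.00385) and with Amphotericin B (0.86 ± 0.24, 0.0288) than with cisplatin alone. It had 127, 138 and 158 CPM in untreated cells, 62.7, 27.0 and 41.7 CPM with cisplatin and 92.7, 98.7 and 98.6 CPM with Tranilast. The kinase gene NUAK2 was called lower with Amphotericin B, where it had 1, 0 and 1 counts, so that no fold is given. For Amphotericin B, 9 of the 12 were called without cisplatin replicate 1, and 0 without cisplatin replicate 2 or 3 or any of the Amphotericin B libraries. Of all genes, 33.8% were called without cisplatin replicate 1 and 1.83% to 8.42% in the fits with 0. With Telmisartan 0 of the 12 were called by edgeR or DESeq2, with 1 at an unadjusted p under 0.05, as had 1150 of the 11113 genes. Without cisplatin replicate 1, 3 of the 12 and 4.81% of all genes were called.

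**Figure D4:**
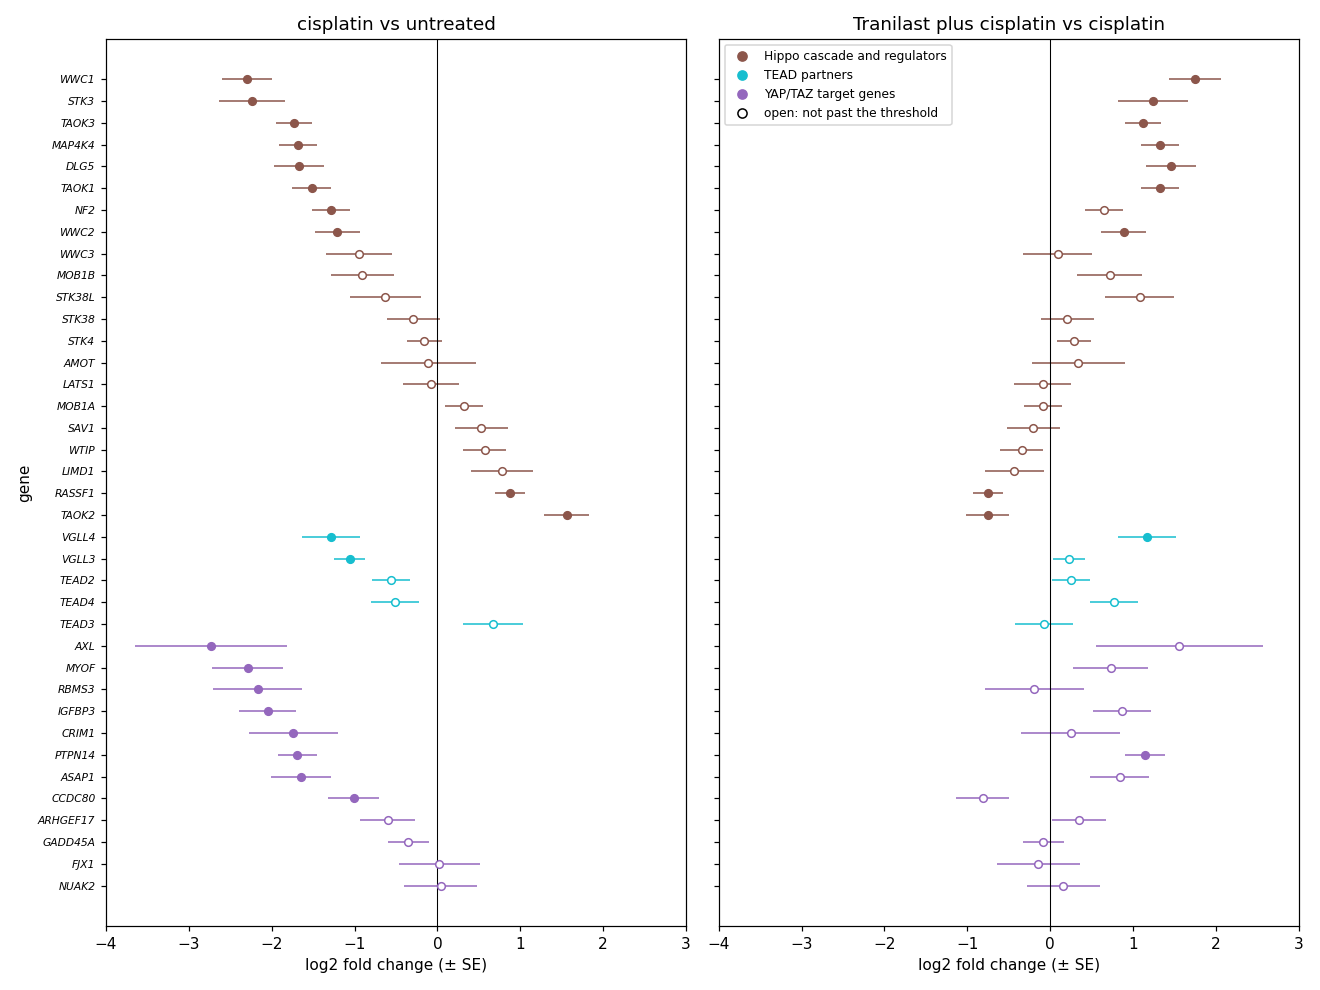
Log2 fold change with its SE (horizontal axes, same scale) for the 38 tested genes of the 3 pathway lists (vertical axis) with cisplatin against untreated cells and with Tranilast plus cisplatin against cisplatin. Filled points have an adjusted p under 0.05. Most filled points lie below 0 in the first panel, 18 of 20, and above 0 in the second, 9 of 11. Of all genes tested, 23.6% were lower and 21.1% higher in the first comparison. In the second, 11.6% were lower and 10.5% higher.

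The genes that fell with cisplatin were often long. Of the 47 tested members and listed genes together, 22 span at least 100 kb in GENCODE 29, and 16 of these were lower and 0 higher. Of the 10 that span under 20 kb, 2 were lower and 3 higher. Over all genes tested, 67.6% of those of at least 100 kb were lower and 1.95% higher (median log2 fold change -1.25, 1842 genes), and of those under 20 kb 6.78% were lower and 39.5% higher (median 0.55, 4278 genes). WWTR1 (219 kb) and TEAD1 (269.9 kb) were among the long genes that fell, whereas AMOTL1 (170.3 kb) and YAP1 (123 kb) did not pass the test. ANKRD1 fell although it spans 9.18 kb, and AMOTL2 spans 19.6 kb. These values are a description, and the part of gene span in the fold changes was not tested.

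**Figure D5:**
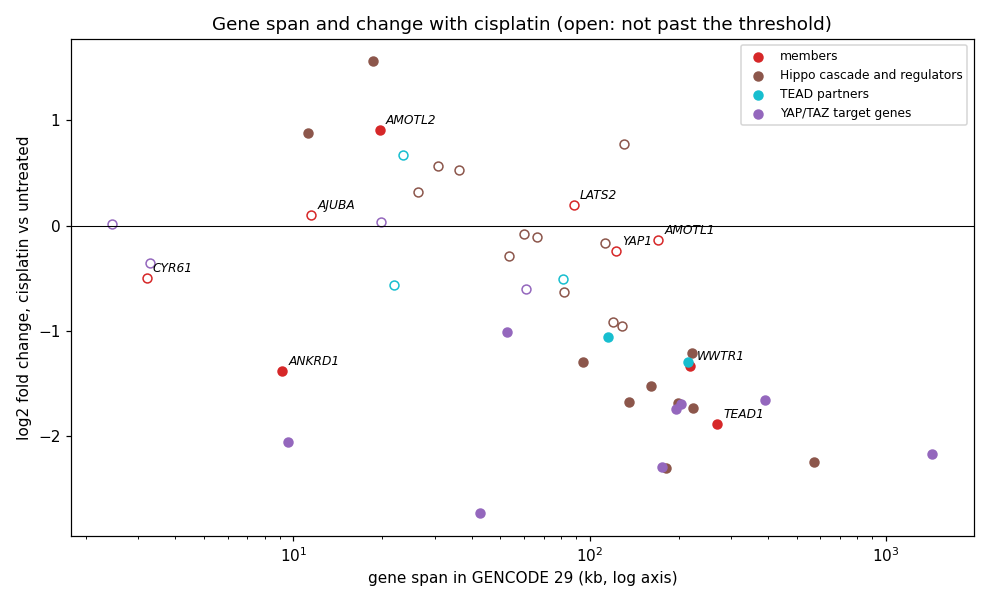
Log2 fold change with cisplatin against untreated cells (vertical axis) against gene span in kb (horizontal log axis) for the 9 tested members, named, and the 38 tested genes of the lists. Filled points have an adjusted p under 0.05. Of the 22 genes of at least 100 kb, 16 were lower and 0 higher, against 67.6% and 1.95% of all tested genes of that span. ANKRD1 is a short gene that fell.

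The largest count of a gene that overlaps a member in GENCODE 29 was 6 in a library, for a sense intronic RNA within TEAD1, and the antisense gene WWTR1-AS1 had at most 4. Whether the counting used the strand is not given in the sources used here.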

How the data were processed

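The authors deposited, for each of the 15 libraries, raw read counts per Ensembl gene, without normalization or filtering. The submitters' processing notes name STAR 2.3.0, HTSeq and the build hg19. From these counts the members were read by Ensembl identifier, named with GENCODE 29. The main test was edgeR 4.0.16 (R 4.3.3): TMM factors, filterByExpr by condition, 1 quasi-likelihood fit of all 15 libraries, 10 comparisons, Benjamini-Hochberg adjustment over 11113 genes and a threshold of 0.05. The SE was derived by dividing the absolute log2 fold change by the root of the F statistic. CPM values use the TMM factors, and log2 CPM a prior count of 2. Summaries used Python 3.11.15. The fit was tested on simulated data. A first pass criterion on the number of recovered genes was not met and was replaced after that run, since the missed genes were mainly small changes at low counts.

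The members and lists were chosen with earlier results of these data known. Named list genes are the 2 with the smallest adjusted p in each direction in cisplatin against untreated and in each drug against cisplatin, with ties kept. Alternatives were RLE factors, library size only, the likelihood ratio test, DESeq2 1.42.0, no filter, only the 6 libraries of a comparison, the replicate number as a block and each library left out in turn, and, added after the values had been seen, a fit without cisplatin replicate 1 and Telmisartan replicate 3 and the share of mitochondrial rRNA as a covariate. A floor of 3 counts stands for 8.53e-05% to 0.000199% of a library. The 95% Wilson intervals of the mitochondrial share were at most 0.053 points to either side. Floors and intervals cover counting error only.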

Additional observations from a re-analysis of the deposited data

Results flagged for a closer look

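The effects of Tranilast and Amphotericin B, both given with cisplatin, differed for 3 members by the edgeR test of the difference itself. These were 3 of 9 members tested, all higher with Tranilast, where 36.0% of the 11113 genes were called, 2186 higher and 1817 lower. Taken over both directions, the share of members called did not exceed that of all genes. The log2 fold changes of Tranilast against Amphotericin B were 1.07 for AMOTL1, 1.03 for AMOTL2 and 1.14 for LATS2. The Amphotericin B libraries held 12.3% to 14.8% of mitochondrial rRNA and the Tranilast libraries 2.10% to 2.53%, so that drug and share cannot be told apart in this comparison. The adjusted p over the alternatives ranged from 0.00538 to 0.947 for AMOTL1, from 0.00143 to 0.727 for AMOTL2 and from 4.13e-05 to 0.932 for LATS2. The highest value of each came from the fit with the share as a covariate, which called 0.774% of all genes. Groups of 3 libraries are too small for the test of single outlying values.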

How the results depend on the processing

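The calls of ANKRD1 (4 comparisons) and of WWTR1 with cisplatin and with Tranilast against cisplatin kept their direction and their side of the threshold in all 24 alternatives. Counts below are members called unless a list is named, and the cause of each change was not tested. In the order cisplatin against untreated, then Tranilast, Telmisartan and Amphotericin B against cisplatin, leaving out each library in turn gave 2 to 4, 2 to 4, 0 to 2 and 0 to 5 members (4, 2, 0 and 3 with all libraries). Of all genes, it called 31.6% to 49.3%, 9.66% to 28.9%, 0% to 4.81% and 1.83% to 33.8%. For the drugs in the same order against untreated cells it gave 0 to 0, 2 to 3 and 2 to 4. There, 2.53% to 14.1%, 17.5% to 36.9% and 31.1% to 46.2% of all genes were called. Leaving out each library gave 0 to 1 for Tranilast against Telmisartan, 1 to 5 for Tranilast against Amphotericin B (1 without Tranilast replicate 3 or Amphotericin B replicate 1, 5 without Telmisartan replicate 3) and 0 to 1 for Telmisartan against Amphotericin B. The fits named in brackets called 24.9%, 24.5% and 40.8% of all genes. Over all fits that left out 1 library, these 3 comparisons called 0% to 24.4%, 23.7% to 41.7% and 0% to 5.87%. For the Hippo list leaving out each library gave 10 to 12, 6 to 11, 0 to 2 and 0 to 7 genes, for the TEAD partners 2 to 3, 0 to 2, 0 to 0 and 0 to 0, and for the YAP targets 5 to 9, 1 to 4, 0 to 3 and 0 to 9.

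With library size only, 4 members were called for Tranilast against cisplatin, 7 for Amphotericin B against untreated and 7 for Tranilast against Amphotericin B, with 2 Hippo genes and 1 YAP target for Amphotericin B and 3 TEAD partners and 4 YAP targets for Tranilast. Of all genes, 26.8%, 51.2% and 54.7% were called in the comparisons named first, and 9.83% for Amphotericin B against cisplatin. The main fit called 22.2%, 40.9%, 36.0% and 13.2%. This scaling moved the median of all genes to 0.81 in Tranilast against Amphotericin B, where YAP1 reversed (0.63, adjusted p = 0.0291, edgeR). It gave 2582 higher and 397 lower genes for Tranilast against cisplatin, where TMM gave 1169 and 1293, and 1019 higher and 3351 lower for cisplatin against untreated, where TMM gave 2345 and 2622. The likelihood ratio test gave 5 members for Amphotericin B and 1 for Telmisartan against Amphotericin B, 2 TEAD partners and 3 YAP targets for Tranilast and 4 YAP targets for Amphotericin B. It called 19.4% of all genes for Amphotericin B, 4.14% for Telmisartan against Amphotericin B and 28.2% for Tranilast. DESeq2 gave 1 member for Telmisartan, 5 for Amphotericin B and 1 for Telmisartan against Amphotericin B, with 0.495%, 16.3% and 1.66% of all genes. No filter gave 5 members for Tranilast against Amphotericin B, 1 for Telmisartan against Amphotericin B, 2 TEAD partners and 4 YAP targets for Tranilast and 4 YAP targets for Amphotericin B. In the same order it called 18.3%, 3.46%, 10.4% and 7.84% of 24733 genes. Only the 6 libraries gave 0 members, 0 Hippo genes and 0 YAP targets for Amphotericin B, 0 TEAD partners for Tranilast and 4 members for Tranilast against untreated. These fits called 0.967%, 17.2% and 36.4% of all genes.

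No pairing by replicate number was assumed in the main fit, and no pair of conditions had correlations of same-numbered deviations over 0.1 for all 3 numbers. Between cisplatin and Telmisartan they were 0.311, -0.174 and 0.631, with a mean of 0.256 against -0.141 for other numbers. With 3 libraries per condition these values cannot exclude pairing. With the replicate number as a block, 4, 2, 0 and 3 members were called in the first 4 comparisons, and the count of TEAD partners for Tranilast was 2. Of all genes, 44.8%, 22.7%, 0% and 13.4% were called. Without cisplatin replicate 1 and Telmisartan replicate 3, 4 members were called for Tranilast, 4 for Telmisartan, 7 for Amphotericin B, 2 for Tranilast against untreated, and 3, 5 and 1 among the drugs (Tranilast against Telmisartan, Tranilast against Amphotericin B, Telmisartan against Amphotericin B), with 5 and 10 Hippo genes for Telmisartan and Amphotericin B, 2 TEAD partners for Tranilast and 6, 6 and 10 YAP targets for the 3 drugs. Of all genes, 36.3%, 24.9% and 43.4% were called for Tranilast, Telmisartan and Amphotericin B against cisplatin. It was 23.4% for Tranilast against untreated, and 36.6%, 49.4% and 1.15% among the drugs. With the mitochondrial rRNA share as a covariate there was 1 member each for Telmisartan and Amphotericin B. There was also 1 each for Tranilast and Amphotericin B against untreated, and 0 for Tranilast against Amphotericin B. In this order, 3%, 4.84%, 22.2%, 19.4% and 0.774% of all genes were called, and 26.2% for Tranilast against cisplatin. The lists then had 2 and 1 Hippo genes for Telmisartan and Amphotericin B, 0 and 1 TEAD partners for Tranilast and Amphotericin B, and 6 and 0 YAP targets for Tranilast and Amphotericin B. With this covariate AMOTL1 changed sign in Tranilast against Amphotericin B (-0.12) and LATS2 in Amphotericin B against untreated (0.15), neither past the threshold. Of 1649 values of members past the threshold in neither fit, 92 had the opposite sign and are not counted as changes. Counts per library were 0 to 9 for CTGF, 3 to 46 for TEAD1 and 5 to 30 for AJUBA, the lowest of the members.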
